A study of Danio rerio with 10 samples.

Results

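Heart cells sorted for gata1a:DsRed, a red fluorescent reporter under the gata1a promoter, were compared between fish labelled Npas4l OE, for overexpression of npas4l, and control fish. The comparison holds 4 of the 10 libraries of the series, 2 titled Npas4l OE and 2 titled control, and every library with one of these titles was taken. The other 6 libraries, 3 titled wild type and 3 titled clofv087b/+, hold CD41:eGFP cells from amputated hearts. They enter here only through an alternative that estimates the spread from all 10. Each library was made from 6000 cells sorted from 15 pooled adult zebrafish ventricles, and messenger RNA was reverse-transcribed from an oligo-dT primer and amplified before sequencing.

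All 4 gata1a libraries were taken 7 days after treatment with 4-hydroxytamoxifen (4-HT), the ligand that lets the Cre-ERT2 recombinase enter the nucleus. Both OE-labelled libraries, as the libraries titled Npas4l OE are called here, carry a pair of transgenes, gata1a:Cre-ERT2 together with ubi:loxp-eGFP-stop-loxp-Npas4l. In these fish the gata1a promoter drives the recombinase, which is designed to excise eGFP and a stop signal so that the ubiquitous ubi promoter can drive npas4l. Control replicate 2 has Tg(ubi:loxp-eGFP-stop-loxp-Npas4l), the responder transgene with no recombinase. Control replicate 1 is labelled clofv087b/+, the heterozygous genotype of the other experiment, so its genotype is uncertain. The number of calls is given with and without it. The medians of some lists are also given without it. The same holds for the log2 fold changes of some of the 89 genes followed over the alternatives. For the other lists and genes its part in the values is not shown. The labels of these libraries give no injury, age or sex. They name the cells platelets, whereas the gata1a reporter marks erythroid cells as well as thrombocytes. Each library is a pool of cells, and p-values below measure only the spread between pools. Those from the fit of all 10 libraries also draw on the spread between the CD41:eGFP pools.

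npas4l is the gene at the cloche locus and encodes a basic helix-loop-helix PAS transcription factor. In zebrafish embryos it stands at the top of the programme that makes blood and vessel precursors and acts upstream of etv2 and tal1. Thrombocytes are the nucleated platelets of fish. They share with erythroid cells a precursor that depends on gata1a, and mature erythroid cells also keep their nucleus and RNA.

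The libraries held 7396916 to 9036340 counts assigned to genes, and 14006 genes passed the filter on low counts. Levels are given as CPM, counts scaled to a common library size. Across genes, log2 CPM correlated at 0.933 between the controls and at 0.946 between the OE-labelled libraries, and at 0.893 to 0.938 between the groups, so these ranges overlapped; genes are not independent replicates. The first principal component held 51.3% of the variance and separated the groups. Reads outside annotated genes made up 6.22% and 9.82% of the control files and 11.4% and 11.6% of the files labelled Npas4l OE. The part of this difference in the results below was not tested.

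The targeted gene was examined first. npas4l (ENSDARG00000116511) was at 42.1 and 31.1 CPM in the controls and 57.8 and 27.3 CPM in the OE-labelled libraries, for a log2 fold change of 0.21 (SE 0.35), and its adjusted p was 0.826. The log2 fold change was 0.45 without control replicate 1. The groups overlapped, with OE-labelled replicate 1 highest and OE-labelled replicate 2 lowest of the 4. The count of npas4l therefore did not separate the groups. The direction of every difference below follows from the titles, not from a measured rise of npas4l. The genotype labels of the OE-labelled libraries and of control replicate 2 go with their titles, whereas that of control replicate 1 does not. Reads of the transgene reach this gene only as far as its message contains the annotated exons, which the labels do not state.

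The sorted cells carried transcripts of both lineages that express the reporter. gata1a (ENSDARG00000013477), the erythroid and thrombocyte transcription factor behind the reporter, was at 706 and 394 CPM in the controls and 829 and 646 CPM in the OE-labelled libraries. itga2b (ENSDARG00000018687), which encodes the thrombocyte integrin CD41, was at 2759 and 2285 CPM in the controls and 3146 and 2669.5 CPM in the OE-labelled libraries. The log2 fold changes were 0.42 (SE 0.28) and 0.21 (SE 0.20), with adjusted p of 0.519 and 0.682, and for both genes control replicate 1 lay within the range of the OE-labelled libraries. Without control replicate 1 they were 0.90 and 0.35, and without control replicate 2 they were 0.063 and 0.076. Among the other defining thrombocyte markers, mpl, the thrombopoietin receptor, was at 798 and 669 CPM in the controls and 1044 and 878 CPM in the OE-labelled libraries. Of the defining erythroid markers besides gata1a, alas2 was detected in all 4 libraries, and of the genes named SLC4A1 one, ENSDARG00000024560, had no count in any library. Cardiomyocyte transcripts were abundant in all 4, and cmlc1, for a cardiac myosin light chain, was at 5819 and 8278 CPM in the controls and 3886 and 3518 CPM in the OE-labelled libraries. The neutrophil markers lyz and mmp13a were at 0 in every library. The label platelets thus covers libraries that hold thrombocyte, erythroid, cardiac muscle and macrophage transcripts together.

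**Figure D1:**
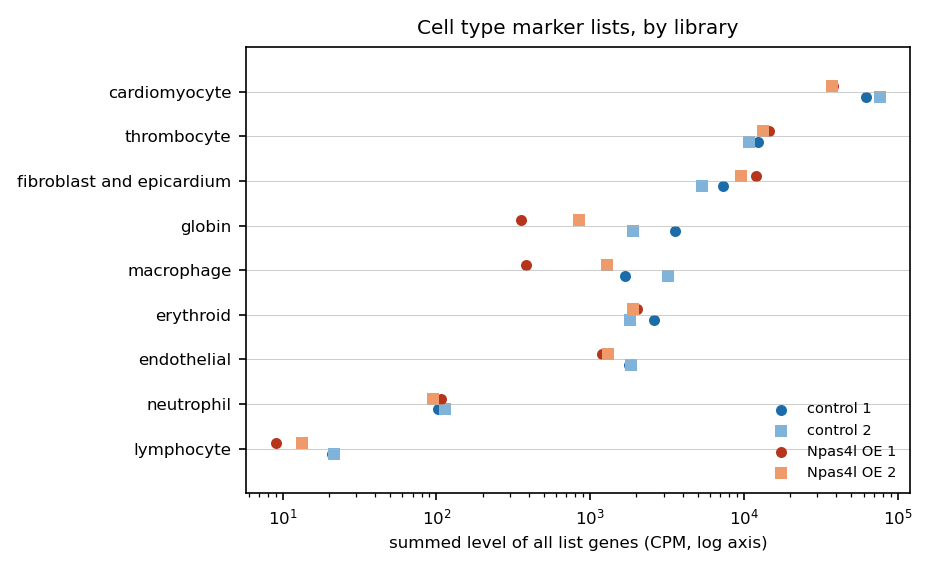
Summed level of each cell type marker list and of the globin genes in the 4 libraries, in CPM on a log axis, with blue for the controls, red for the libraries labelled Npas4l OE and the markers offset vertically for legibility. Cardiomyocyte and globin sums were lower in both libraries labelled Npas4l OE, and the macrophage sum was lowest in replicate 1 of them at 383 CPM.

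Few single genes passed the test, and those of known role that fell encode a muscle protein, a globin and an MHC class II chain. Of the 14006 genes, 5 had an adjusted p under 0.05 in edgeR's quasi-likelihood test (Benjamini-Hochberg adjustment), which is 0.0357% of those tested. In the OE-labelled libraries 1 was higher (0.00714%) and 4 were lower (0.0286%). Without adjustment, 2167 genes (15.5%) had a p under 0.05, 856 higher (6.11%) and 1311 lower (9.36%). Both OE-labelled libraries lay above both controls for 23.3% of the genes and below both for 24.3%, and the median log2 fold change over all genes was -0.010. With 2 libraries a side an exact permutation test cannot give a two-sided p below 0.333, so the calls rest on the fit across all genes.

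The number of calls depended on how the spread was estimated and on single libraries. When all 10 libraries of the series shared one estimate of the spread, 110 of 15380 genes (0.715%) were called for the same contrast, 28 higher (0.182%) and 82 lower (0.533%). Both OE-labelled libraries lay outside both controls for each of them, where 47.6% of the 14006 genes did so. The calls used the same values, so this is no separate support for them. Leaving out one library gave 952 calls without control replicate 1, whose genotype label is uncertain, 79 without control replicate 2, and 51 and 238 without OE-labelled replicates 1 and 2. Each of these 4 fits kept all 5 genes, and in them the lone library was assumed to vary like the pair of the other group. In what follows, genes are said to have fallen only where the fit of the 4 libraries called them, and genes that only the fit of all 10 called are named as such.

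**Figure D2:**
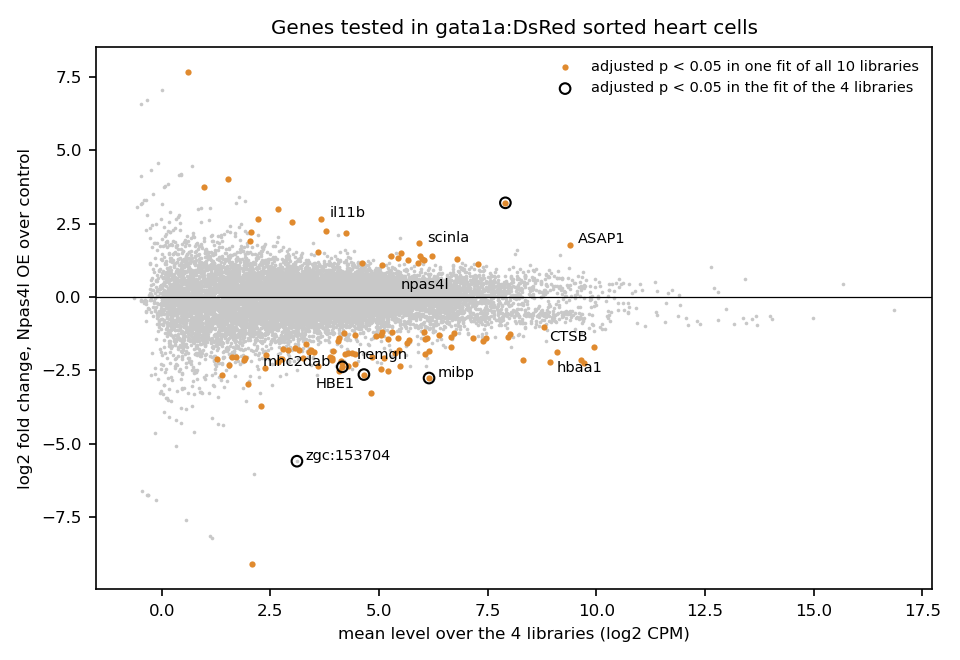
Log2 fold change of each tested gene in the libraries labelled Npas4l OE over the controls against its mean level in log2 CPM. Circles mark the 5 genes with an adjusted p under 0.05 in the fit of the 4 libraries and orange points the genes called in one fit of all 10 libraries, most of which lie below 0.

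The gene that fell with the smallest p was mibp (ENSDARG00000101362), which encodes a muscle integrin-binding protein, the fish relative of the mammalian nicotinamide riboside kinase NMRK2. It was at 141 and 107 CPM in the controls and 17.5 and 18.8 CPM in the OE-labelled libraries. Both OE-labelled libraries lay far below both controls, with group means of 124 ± 23.8 CPM against 18.2 ± 0.916 CPM (SD, n = 2 each), and the log2 fold change was -2.77 (SE 0.26) at an adjusted p of 0.00548. mibp was also called under each of the 15 alternatives, including one fit of all 10 libraries (adjusted p 0.000103).

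HBE1 (ENSDARG00000069734), one of several genes given this globin symbol, fell from 50.7 and 36.0 CPM to 7.69 and 6.18 CPM, a log2 fold change of -2.65 (SE 0.32) at an adjusted p of 0.0341. mhc2dab (ENSDARG00000079105), a beta chain of MHC class II, fell from 31.2 and 28.6 CPM to 5.89 and 5.56 CPM, a log2 fold change of -2.38 (SE 0.31) at an adjusted p of 0.0492. Both have near copies in the genome that may share their reads, which makes their levels uncertain. The last of the genes that fell, zgc:153704 (ENSDARG00000045979), has no described role in the sources used here. Its counts were 167 and 100 for the control libraries but 0 and 6 for those labelled Npas4l OE, and its adjusted p of 0.0492 became 0.0640 with the spread of all 10 libraries and 0.0872 with limma-voom. For these 3 genes too, each OE-labelled library lay below each control.

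Just outside the threshold in the fit of the 4 libraries, the higher genes with the smallest p were il11b, ASAP1, scinla and tnk1. il11b (ENSDARG00000058557), one of the fish genes for interleukin-11, a cytokine of the interleukin-6 family, was at 4.65 and 2.16 CPM in the controls and 24.3 and 19.4 CPM in the OE-labelled libraries. Its log2 fold change was 2.67 (SE 0.42), with an adjusted p of 0.0605 in the fit of the 4 and 0.00173 in the fit of all 10. ASAP1 (ENSDARG00000039729), an Arf GTPase-activating protein found at focal adhesions, was the most abundant of the group at 254 and 349 CPM in the controls and 859 and 1214 CPM in the OE-labelled libraries (log2 fold change 1.78 (SE 0.25)). Its adjusted p was 0.0605 and, with all 10 libraries, 0.00735. scinla, of the gelsolin family of actin-severing proteins, was at 30.7 and 22.1 CPM in the controls and 80.2 and 107 CPM in the OE-labelled libraries (log2 fold change 1.83 (SE 0.28), adjusted p 0.0605 and 0.0228).

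The peptide hormone gene ADM (ENSDARG00000069027), which encodes the vasodilator adrenomedullin, was at 173 and 124 CPM in the controls and 503 and 315 CPM in the OE-labelled libraries, with an adjusted p of 0.0900. MVP, the main protein of vault particles, was at 6.48 and 3.11 CPM in the controls and 24.3 and 21.4 CPM in the OE-labelled libraries, and the non-receptor tyrosine kinase gene tnk1 at 7.71 and 5.81 CPM in the controls and 33.3 and 28.4 CPM in the OE-labelled libraries. The signalling genes PRKCE (ENSDARG00000069928; protein kinase C epsilon), PDE1C (a cyclic nucleotide phosphodiesterase) and MAGI3 (ENSDARG00000101869; a membrane scaffold) had log2 fold changes of 1.34, 1.56 and 1.27. RAB40C, VEPH1, SNX25, sgms1b and susd1 had values of 1.39, 1.40, 1.29, 1.30 and 1.16. Each of the 11 genes from ADM to susd1 lay above both controls in both OE-labelled libraries. The rule that chose these genes required this, so it is not a result. The adjusted p of these 11 ranged from 0.0605 to 0.0900 in the fit of the 4 libraries. The fit of all 10 did not call ADM, PDE1C or susd1 (adjusted p 0.0575, 0.0624 and 0.0563), whereas it called the other 8, with adjusted p from 0.0149 to 0.0479.

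**Figure D3:**
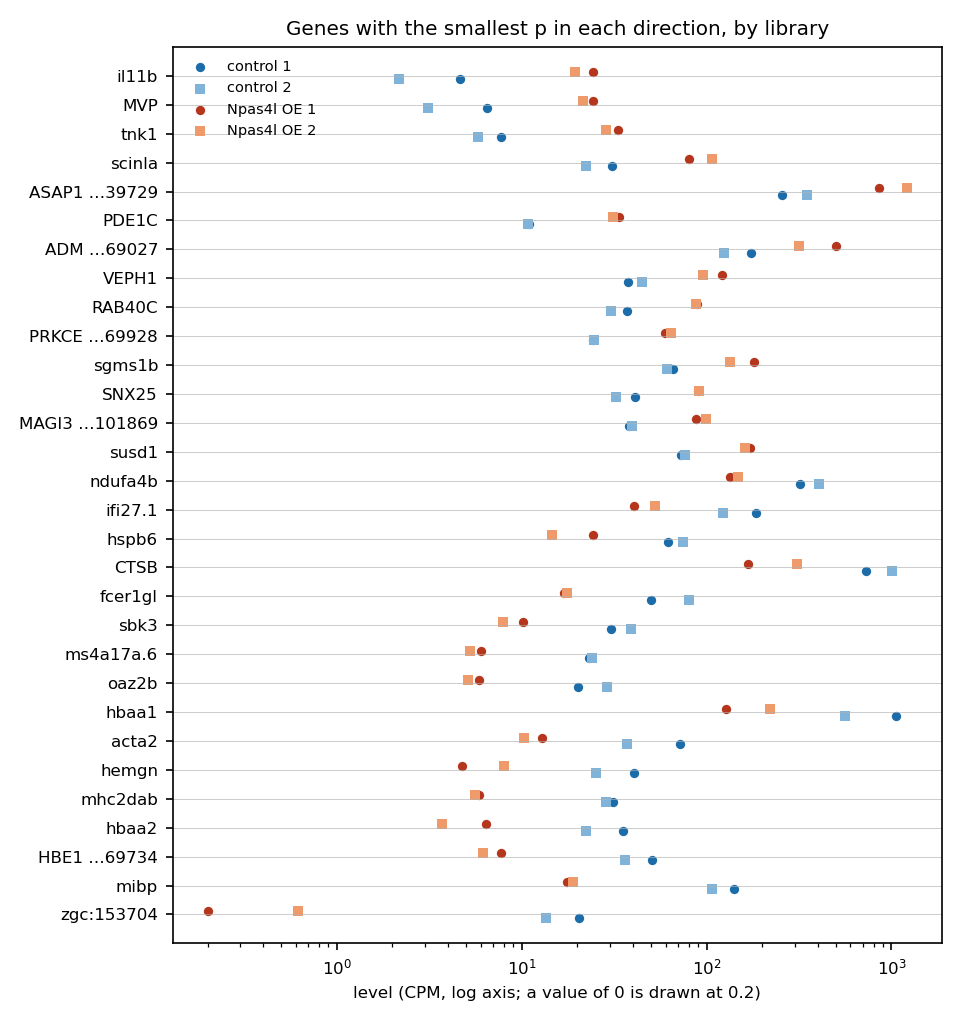
Level in CPM, on a log axis, of the named genes with the smallest p in each direction, in the 4 libraries, with higher genes at the top and lower genes at the bottom; a level of 0 is drawn at 0.2 and shared symbols carry the end of the gene identifier. For every gene plotted both libraries labelled Npas4l OE lie outside both controls, as for mibp at 141 and 107 CPM against 17.5 and 18.8 CPM. The rule of choice required this of all of them except zgc:153704.

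The lower genes just outside the threshold included hbaa1, hemgn, CTSB and ndufa4b, which are described with their lists. fcer1gl, related to the signalling gamma chain of Fc receptors, was at 49.8 and 80.2 CPM in the controls and 16.9 and 17.6 CPM in the OE-labelled libraries, and ms4a17a.6, of the MS4A family of membrane proteins, at 23.0 and 24.0 CPM in the controls and 6.02 and 5.25 CPM in the OE-labelled libraries. The muscle-related genes sbk3 (a kinase), hspb6 (a small heat shock protein of muscle) and acta2 (smooth muscle actin) had log2 fold changes of -1.95 (SE 0.31), -1.81 (SE 0.30) and -2.24 (SE 0.35). Their adjusted p were 0.0605, 0.0719 and 0.0605, and in the fit of all 10 0.0113, 0.00603 and 0.0702, so that acta2 was not called there. fcer1gl and ms4a17a.6 were (adjusted p 0.00365 and 0.0310). For acta2 the controls were at 71.9 and 37.3 CPM and the OE-labelled libraries at 12.8 and 10.3 CPM. oaz2b, an inhibitor of polyamine synthesis, was at 20.2 and 28.8 CPM in the controls and 5.89 and 5.15 CPM in the OE-labelled libraries (adjusted p 0.0605, and 0.0165 with all 10 libraries).

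Gene lists put these single genes in context; the counts below cover members that passed the filter on low counts and describe the lists without a test of them. Without scaling factors, on library size alone, the median over all genes moved from -0.010 to 0.18 and the list medians moved up with it, so list medians are best read against the median of all genes.

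**Figure D4:**
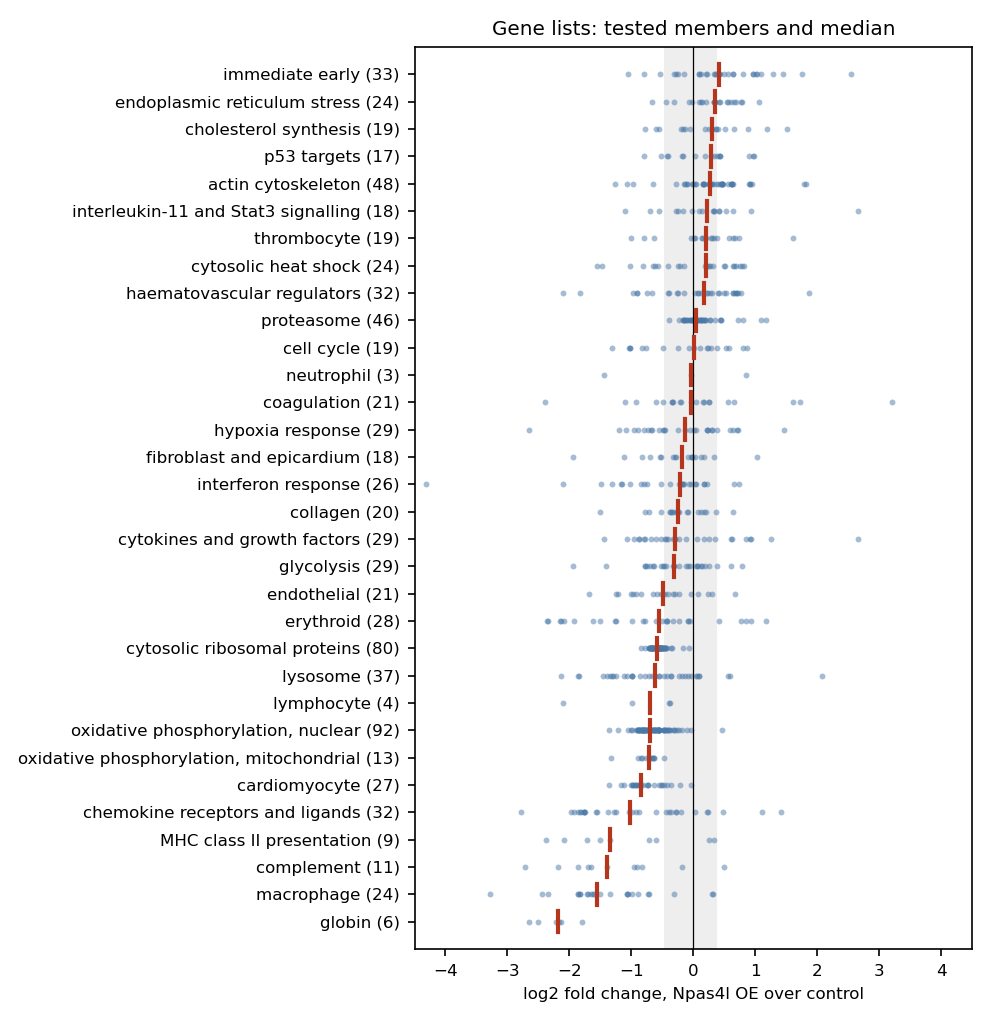
Log2 fold change, libraries labelled Npas4l OE over controls, of each tested member of 32 gene lists (blue points), with the list median (red bar), the number tested in parentheses and the middle 50% of all genes, from -0.45 to 0.37, shaded. The globin, macrophage, complement and MHC class II lists lie farthest to the left, and 1 immediate early gene with no count in the controls lies beyond the axis.

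Globin transcripts, which encode the oxygen carrier of red blood cells, were lower in both OE-labelled libraries. Of 16 globin genes 6 passed the filter, and both OE-labelled libraries lay below both controls for all 6, where 24.3% of all genes did so. The fit of the 4 libraries called 1 of them (0.0286% of all genes were called lower) and the fit of all 10 called all 6 (0.533% of all genes). The median log2 fold change was -2.19. The most abundant of these 6, HBE1 (ENSDARG00000089087), was at 1784 and 839 CPM in the controls and 149 and 446 CPM in the OE-labelled libraries. The alpha globin hbaa1 (ENSDARG00000097011) was at 1055 and 564 CPM in the controls and 127 and 221 CPM in the OE-labelled libraries, with an adjusted p of 0.0605 and, in the fit of all 10, 0.00727. Control replicate 1 was the highest and OE-labelled replicate 1 the lowest for both. Summed over the 16 listed genes the level was 3551 and 1895 CPM in the controls and 357 and 849.6 CPM in the OE-labelled libraries. The list was drawn by a symbol pattern, so a globin gene under a clone name would not be counted.

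Other erythroid genes lay mostly, but not all, on the lower side. Of 28 tested erythroid members 14 lay below both controls in both OE-labelled libraries and 4 above (24.3% and 23.3% of all genes), with a median of -0.56, and 7 were called lower in the fit of all 10 libraries (0.533% of all genes). hemgn, the erythroid nuclear protein hemogen, was at 40.6 and 25.1 CPM in the controls and 4.74 and 8.03 CPM in the OE-labelled libraries (log2 fold change -2.35 (SE 0.38), adjusted p 0.0605 and 0.00185). cahz, the carbonic anhydrase of fish red cells, was at 101 and 49.8 CPM in the controls and 8.20 and 20.8 CPM in the OE-labelled libraries, and alas2, the erythroid enzyme of the first step of haem synthesis, at 76.2 and 35.4 CPM in the controls and 9.09 and 17.1 CPM in the OE-labelled libraries. With hemgn, cahz and alas2, the list's calls in the fit of all 10 were nt5c2l1, SLC4A1 (ENSDARG00000012881; the band 3 anion exchanger), klf1 (an erythroid transcription factor) and TMOD4. In contrast CPOX, a later enzyme of haem synthesis, was at 12 and 8.91 CPM in the controls and 17.9 and 22.1 CPM in the OE-labelled libraries, a log2 fold change of 0.94 (SE 0.32) at an adjusted p of 0.221. gata1a itself and TAL1, which act with klf1 in red cell genes, had log2 fold changes of 0.42 and 0.50, with overlapping groups for both, and that of gata1a ranged from 0.063 to 0.90 when one library was left out. In pooled cells, fewer cells of a type and less RNA of that type per cell cannot be told apart.

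Cardiac muscle genes were lower in both OE-labelled libraries. Of 27 tested cardiomyocyte genes all 27 had a negative log2 fold change, 22 lay below both controls in both OE-labelled libraries (24.3% of all genes) and 18 had an unadjusted p under 0.05 (9.36% of all genes were lower at that p). None passed in the fit of the 4 libraries or of all 10. The natriuretic peptide gene nppa was at 1342 and 1406 CPM in the controls and 620.0 and 609 CPM in the OE-labelled libraries (log2 fold change -1.16 (SE 0.20), adjusted p 0.0735). The cardiac actin gene actc1a was at 16417 and 18944 CPM in the controls and 9634 and 8369 CPM in the OE-labelled libraries, and MYL7 at 13562 and 15222 CPM in the controls and 7915 and 7711 CPM in the OE-labelled libraries. mb, which encodes myoglobin, was at 11539 and 12766 CPM in the controls and 5744 and 7041 CPM in the OE-labelled libraries. These 4 genes had adjusted p from 0.0735 to 0.0984. The list median was -0.85, and -0.52 without control replicate 2, which held more cardiomyocyte RNA than the other control. Summed over the list, the level was 62340.0 and 76360.0 CPM in the controls and 37990.0 and 37460.0 CPM in the OE-labelled libraries.

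Genes of energy metabolism were on the lower side too. All 13 protein genes of the mitochondrial genome lay below both controls in both OE-labelled libraries, where 24.3% of all genes did so. Their median log2 fold change was -0.72. Their sum was 113500.0 and 128200.0 CPM in the controls and 71030.0 and 75990.0 CPM in the OE-labelled libraries. MT-CO1, a core subunit of cytochrome c oxidase, was at 38990.0 and 41186 CPM in the controls and 24644 and 24020.0 CPM in the OE-labelled libraries, with an adjusted p of 0.130. Of 92 nuclear genes of oxidative phosphorylation 87 lay below both controls (24.3% of all genes), around a median of -0.70. At an unadjusted p under 0.05, 69 were lower (9.36% of all genes). ndufa4b, a subunit associated with cytochrome c oxidase, was the one called in the fit of all 10 (adjusted p 0.0275). In that fit 0.533% of all genes were called lower. ndufa4b was at 318 and 404 CPM in the controls and 134 and 148 CPM in the OE-labelled libraries. cox5aa and atp5mc1, subunits of cytochrome c oxidase and of ATP synthase, had log2 fold changes of -0.83 (SE 0.20) and -0.82 (SE 0.20).

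Of the glycolysis genes 13 of 29 lay below both controls and 5 above (24.3% and 23.3% of all genes). Their median was -0.31, and -0.20 without control replicate 2. GAPDH, the most abundant of those named, was at 8038 and 9995 CPM in the controls and 5214 and 5246 CPM in the OE-labelled libraries, and ALDOA (ENSDARG00000011665), an aldolase, at 4798 and 4323 CPM in the controls and 2934 and 2917 CPM in the OE-labelled libraries. Their adjusted p were 0.130 and 0.175. Cytosolic ribosomal protein genes, which every cell uses, had a narrow spread of lower values. All 80 tested had a negative log2 fold change and 79 lay below both controls (24.3% of all genes). At an unadjusted p under 0.05, 69 were lower (9.36% of all genes), and none was called. RPL7 was at 607 and 685 CPM in the controls and 394 and 400.5 CPM in the OE-labelled libraries, a log2 fold change of -0.70 (SE 0.20) at an adjusted p of 0.173. The median was -0.58, and -0.39 on library size alone, where the median of all genes was 0.18.

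Macrophage genes and the antigen presentation, complement and lysosome genes that macrophages use lay mostly on the lower side, with a large difference between the OE-labelled libraries. These lists share members, so their medians are not independent of each other. The macrophage list shares cd74a, cd74b and LGMN with the class II presentation list, and C1q chain genes such as c1qa with the complement list. Of 24 tested macrophage genes 16 lay below both controls in both OE-labelled libraries and none above (24.3% and 23.3% of all genes). The median log2 fold change was -1.56, and 4 were called lower in the fit of all 10 (0.533% of all genes). MPEG1 (ENSDARG00000055290), a pore-forming protein of macrophages, was at 41.8 and 70.07 CPM in the controls and 4.48 and 15.8 CPM in the OE-labelled libraries (log2 fold change -2.45 (SE 0.50), adjusted p 0.0984 and 0.0139). csf1ra, a receptor for macrophage colony-stimulating factor, was at 8.56 and 20.9 CPM in the controls and 3.33 and 4.74 CPM in the OE-labelled libraries (log2 fold change -1.86 (SE 0.49), adjusted p 0.147). The scavenger receptor gene marco was at 67.5 and 129.6 CPM in the controls and 10.1 and 83.4 CPM in the OE-labelled libraries, so that OE-labelled replicate 2 lay between the controls. OE-labelled replicate 1 was the lower of the pair for MPEG1 and marco.

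The macrophage sum was 1694 and 3224 CPM in the controls and 383 and 1291 CPM in the OE-labelled libraries. Without OE-labelled replicate 1 the list's median was -0.84 and without OE-labelled replicate 2 it was -2.64. SPI1, the myeloid transcription factor PU.1, was at 14.6 and 33.2 CPM in the controls and 8.45 and 5.05 CPM in the OE-labelled libraries and was called in the fit of all 10 (adjusted p 0.0269). MFAP4 (ENSDARG00000088745) and the chemokine receptor gene cxcr3.2 were called there too, with log2 fold changes of -3.29 and -1.82. MFAP4 was at 20.6 and 81.3 CPM in the controls and 2.05 and 8.13 CPM in the OE-labelled libraries, so the controls differed widely. Without control replicate 2, the higher of them, the log2 fold changes of MFAP4 and SPI1 were -1.99 and -1.11, and that of MFAP4 was -4.61 without OE-labelled replicate 2. MFAP4 and MPEG1 are families of similar genes, each counted as a separate member. Another tested MPEG1 (ENSDARG00000043093) was at 5.75 and 10.5 CPM in the controls and 2.69 and 5.97 CPM in the OE-labelled libraries. The groups overlapped for this gene, with a log2 fold change of -0.89 (SE 0.53) at an adjusted p of 0.464.

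MHC class II presentation genes had a median of -1.34 over 9 tested members. Of these, 5 lay below both controls and 1 above (24.3% and 23.3% of all genes). Besides mhc2dab, cd74b, an invariant chain that guides class II molecules, was at 256 and 550.3 CPM in the controls and 60.8 and 184 CPM in the OE-labelled libraries, and ctss2.2, a cathepsin S, at 73.3 and 150.1 CPM in the controls and 7.69 and 44.3 CPM in the OE-labelled libraries. The regulators of class II transcription ciita and rfx5 had log2 fold changes of -0.61 (SE 0.63) and 0.34 (SE 0.37), with adjusted p of 0.698 and 0.712. Of 16 genes for class II chains, a list added after the values were seen, 6 were tested and all 6 had negative values. Over all genes 7089 of 14006 did, and the count for this list describes its members and tests nothing. mhc2daa, an alpha chain, was at 45.4 and 46.7 CPM in the controls and 5.12 and 17.1 CPM in the OE-labelled libraries (adjusted p 0.118 and, in the fit of all 10, 0.0329), while mhc2dhb was at 52.2 and 105 CPM in the controls and 3.46 and 50.4 CPM in the OE-labelled libraries. The median of the presentation list was -0.79 without OE-labelled replicate 1 and -2.33 without OE-labelled replicate 2.

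Complement genes had a median of -1.40 over 11 tested of 26, with 8 below both controls (24.3% of all genes). The C1q chain gene c1qc was at 187 and 374 CPM in the controls and 24.2 and 129.5 CPM in the OE-labelled libraries, and cfp, which encodes properdin, the positive regulator of the alternative pathway, was at 19.2 and 37.9 CPM in the controls and 2.82 and 9.58 CPM in the OE-labelled libraries (adjusted p 0.0479 in the fit of all 10). The median was -2.90 without OE-labelled replicate 2 and -0.95 without OE-labelled replicate 1. cfd, which encodes complement factor D, separated the groups more evenly, at 428 and 376 CPM in the controls and 199.8 and 254 CPM in the OE-labelled libraries.

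Of 37 tested lysosome genes 22 lay below both controls and 3 above (24.3% and 23.3% of all genes), with a median of -0.62 that was -0.41 without OE-labelled replicate 1. CTSB, the protease cathepsin B, was at 726 and 1004 CPM in the controls and 167 and 308 CPM in the OE-labelled libraries (log2 fold change -1.86 (SE 0.31), adjusted p 0.0702 and 0.00727). TPP1, a lysosomal peptidase, was at 92.6 and 129 CPM in the controls and 19.3 and 42.1 CPM in the OE-labelled libraries, with an adjusted p of 0.0903 and 0.0117. With NPC2 (ENSDARG00000096979), a cholesterol transporter, and ASAH1 (ENSDARG00000034817), acid ceramidase, these were the 4 lysosome genes called in the fit of all 10. In that fit 0.533% of all genes were called lower. Chemokine receptors and ligands had a median of -1.02 over 32 tested of 80, and -0.58 without control replicate 2. Of the 32, 17 lay below both controls and 1 above (24.3% and 23.3% of all genes). CXCR4 (ENSDARG00000041959), the receptor for Cxcl12, was at 58.0 and 83.7 CPM in the controls and 35.5 and 33.3 CPM in the OE-labelled libraries (adjusted p 0.137).

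Interferon-response genes, which cells induce against viruses, leaned to the lower side. Of 26 tested, 12 lay below both controls and 2 above (24.3% and 23.3% of all genes), with 7 lower and none higher at an unadjusted p under 0.05 (9.36% and 6.11% of all genes), and none was called. The median was -0.21, and -0.53 without control replicate 2 and -0.0062 without control replicate 1. IRF7, a transcription factor of the interferon response, was at 93.1 and 124 CPM in the controls and 31.9 and 65.6 CPM in the OE-labelled libraries (adjusted p 0.172), and isg15, a ubiquitin-like interferon-induced protein, at 143 and 58.2 CPM in the controls and 55.0 and 57.5 CPM in the OE-labelled libraries. The ifi27 family of interferon-inducible genes, added as a list after the values were seen, had 8 of 8 negative log2 fold changes with a median of -1.34. Over all genes 7089 of 14006 were negative. As the list was added with values known, its count describes those members and tests nothing. ifi27.1 was at 184 and 123 CPM in the controls and 40.6 and 52.8 CPM in the OE-labelled libraries and ifi27.2 at 387 and 339 CPM in the controls and 129.6 and 176 CPM in the OE-labelled libraries, with adjusted p of 0.0605 and 0.0900, and 0.00857 and 0.0329 in the fit of all 10. These genes are near copies of each other, so their reads may be shared.

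**Figure D5:**
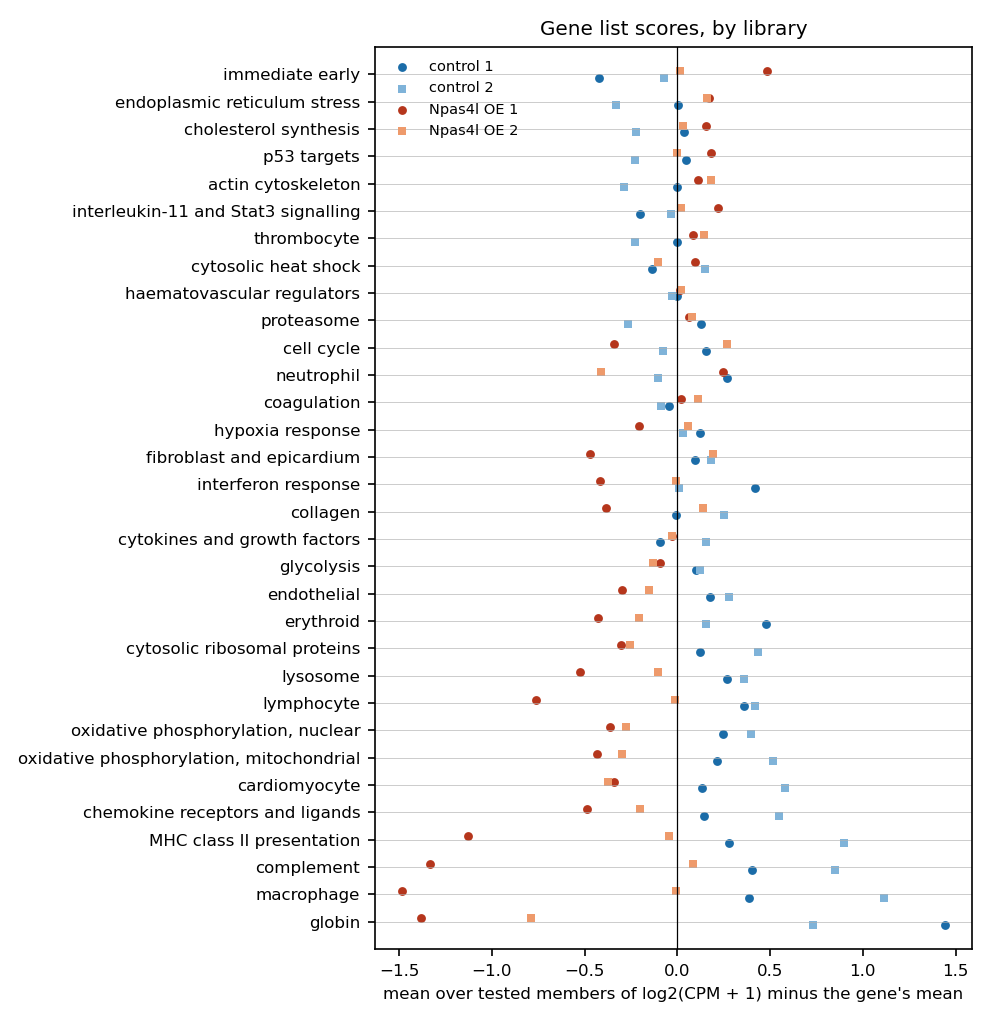
Score of each gene list in each library, log2(CPM + 1) centred on each gene's mean over the 4 libraries and averaged over tested members, with blue for controls and red for libraries labelled Npas4l OE. The globin scores of the libraries labelled Npas4l OE (-1.38 and -0.79) lie below those of the controls, whereas macrophage, complement and MHC class II scores set replicate 1 of them (-1.49 for macrophages) apart from replicate 2 (-0.01).

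Immediate early genes, which respond within minutes to growth factors and stress, tended to the higher side. Of 33 tested, 12 lay above both controls in both OE-labelled libraries and 1 below (23.3% and 24.3% of all genes). At an unadjusted p under 0.05, 11 were higher and none lower (6.11% and 9.36% of all genes). JUNB (ENSDARG00000104773), an AP-1 transcription factor, was at 389.7 and 226 CPM in the controls and 1151 and 526 CPM in the OE-labelled libraries, a log2 fold change of 1.45 (SE 0.37) at an adjusted p of 0.138. The phosphatase gene DUSP5, a brake on ERK, was at 198 and 158 CPM in the controls and 434 and 297 CPM in the OE-labelled libraries (adjusted p 0.130). FOS was at 491 and 405 CPM in the controls and 1268 and 489 CPM in the OE-labelled libraries, where only OE-labelled replicate 1 stood apart. The anti-proliferative gene BTG2 was at 119.9 and 163 CPM in the controls and 353 and 196 CPM in the OE-labelled libraries.

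OE-labelled replicate 1 was the higher of the pair for each of these 4 genes. The list's median of 0.42 was 0.091 without it and 0.71 without OE-labelled replicate 2. The opposite order held for DUSP2, another phosphatase of the family. DUSP2 was at 1.96 and 2.70 CPM in the controls and 7.43 and 19.7 CPM in the OE-labelled libraries. DUSP2 and EGR2 were called higher in the fit of all 10 (adjusted p 0.0173 and 0.02), where 0.182% of all genes were. EGR2 had no count in either control, 10 counts in OE-labelled replicate 1 and 47 in replicate 2. The orphan nuclear receptor gene NR4A3 went the other way, at 3.55 and 9.72 CPM in the controls and 3.46 and 2.88 CPM in the OE-labelled libraries (log2 fold change -1.06 (SE 0.59)).

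Genes of the endoplasmic reticulum stress response had higher values in the OE-labelled libraries in 19 of 24 cases, and 11 lay above both controls and 1 below (23.3% and 24.3% of all genes). HSPA5, the main chaperone of the endoplasmic reticulum, was at 129 and 99.4 CPM in the controls and 262 and 213 CPM in the OE-labelled libraries, a log2 fold change of 1.06 (SE 0.24) at an adjusted p of 0.118. atf4a, a transcription factor of the integrated stress response, was at 433 and 302 CPM in the controls and 615 and 569 CPM in the OE-labelled libraries, and TRIB3, one of its targets, at 403 and 267 CPM in the controls and 672 and 483 CPM in the OE-labelled libraries. None of the 24 was called. The median of 0.35 was 0.13 without control replicate 2, the lower control for all 3 genes, and 0.67 without control replicate 1. Of 24 tested members of the list named cytosolic heat shock, 13 had positive and 11 negative log2 fold changes, and none was called. Lower members were the more frequent at an unadjusted p under 0.05, with 5 lower and 2 higher (9.36% and 6.11% of all genes). The list's median was 0.20, and -0.047 without OE-labelled replicate 1. With a mean of at least 10 CPM, the 3 members of smallest p were HSPE1, HSPB1 and hsf1. All 3 were lower, with log2 fold changes of -1.03, -0.64 and -0.82 and adjusted p of 0.130, 0.210 and 0.240. HSPE1 was at 58.2 and 73.8 CPM in the controls and 32.9 and 31.8 CPM in the OE-labelled libraries. It encodes a mitochondrial chaperonin, so the list is not purely cytosolic. The gene dnajb1b, for a cochaperone of Hsp70, was at 25.6 and 25.7 CPM in the controls and 58.7 and 29.7 CPM in the OE-labelled libraries. The 46 proteasome genes had a median of 0.047, which turned to -0.085 without control replicate 2.

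Thrombocyte genes, those of the cell type named in the labels, leaned to the higher side. Of 19 tested, 15 had positive log2 fold changes, 10 lay above both controls and 2 below (23.3% and 24.3% of all genes), and none was called in the fit of the 4 libraries or of all 10. The summed level was 12410.0 and 10760.0 CPM in the controls and 14590.0 and 13350.0 CPM in the OE-labelled libraries. GP1BB, a chain of the von Willebrand factor receptor, was at 694 and 699 CPM in the controls and 1068 and 1004 CPM in the OE-labelled libraries (log2 fold change 0.57 (SE 0.20), adjusted p 0.218). f13a1b, for the clot-stabilising factor XIII, was at 221 and 64.1 CPM in the controls and 473 and 399 CPM in the OE-labelled libraries (log2 fold change 1.61 (SE 0.45), adjusted p 0.158), with control replicate 2 well below control replicate 1. Its log2 fold change was 2.76 without control replicate 1 and 0.98 without control replicate 2. gp9, for another chain of the same receptor as GP1BB, ran against the list at 85.5 and 66.7 CPM in the controls and 58.0 and 39.9 CPM in the OE-labelled libraries. The median of 0.21 was 0.12 without control replicate 2 and 0.43 without control replicate 1.

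Actin cytoskeleton genes, which thrombocytes use in adhesion and shape change, had 37 of 48 positive values, with 26 above both controls and 4 below (23.3% and 24.3% of all genes), and 2 were called higher in the fit of all 10, ASAP1 and scinla (0.182% of all genes). flna, for the actin crosslinker filamin A, was at 1242 and 1075 CPM in the controls and 1720.2 and 1845 CPM in the OE-labelled libraries, and TLN1, for talin, which links integrins to actin, at 1372 and 1228 CPM in the controls and 1807 and 1822 CPM in the OE-labelled libraries. MYLK (ENSDARG00000034801), a myosin light chain kinase, was at 409 and 372 CPM in the controls and 771 and 680.0 CPM in the OE-labelled libraries and GSN (ENSDARG00000011459), gelsolin, at 79.3 and 90.5 CPM in the controls and 164 and 155 CPM in the OE-labelled libraries. Their adjusted p were 0.195, 0.274, 0.125 and 0.130. Among members on the lower side, MYL9 (ENSDARG00000038123), a smooth muscle light chain, was at 90.8 and 113 CPM in the controls and 52.0 and 52.2 CPM in the OE-labelled libraries. The list's median of 0.28 was 0.15 without control replicate 2 and 0.51 without control replicate 1.

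Coagulation genes had no common direction, with a median of -0.041 over 21 tested of 46 that was 0.15 on library size alone. f8, for clotting factor VIII, was at 819 and 1166 CPM in the controls and 406 and 517 CPM in the OE-labelled libraries (log2 fold change -1.10 (SE 0.24), adjusted p 0.11). vwf, for the adhesive protein that carries factor VIII, was at 81.7 and 89.0 CPM in the controls and 35.9 and 53.4 CPM in the OE-labelled libraries (log2 fold change -0.93 (SE 0.26), adjusted p 0.161). Both lay below both controls, whereas f13a1b lay above them. The urokinase gene plaua, chosen after its values were seen, was at 1.84 and 1.76 CPM in the controls and 4.87 and 7.00 CPM in the OE-labelled libraries.

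Regulators of blood and vessel development, the class that npas4l heads in the embryo, had no call in the fit of the 4 libraries. The fit of all 10 called 1 lower, SPI1, where 0.533% of all genes were called lower. Of 32 tested, 12 lay above both controls and 8 below (23.3% and 24.3% of all genes), the latter a share near that of all genes. At an unadjusted p under 0.05, 8 were higher and 2 lower (6.11% and 9.36% of all genes), and the median was 0.17. LMO2, a partner of TAL1 in blood gene regulation, was at 321 and 181 CPM in the controls and 430.1 and 389 CPM in the OE-labelled libraries and MEIS1, a homeobox factor of blood stem cells and megakaryocytes, at 344 and 264 CPM in the controls and 539.8 and 493 CPM in the OE-labelled libraries. RUNX1, the blood stem cell and megakaryocyte factor, was at 21.7 and 19.8 CPM in the controls and 35.7 and 31.4 CPM in the OE-labelled libraries. The adjusted p of LMO2, MEIS1 and RUNX1 were 0.256, 0.170 and 0.254. TAL1, which lies downstream of npas4l in embryos, was at 302 and 146 CPM in the controls and 354 and 279.9 CPM in the OE-labelled libraries, so that control replicate 1 lay within the OE-labelled range. SPI1 and the lymphoid factor gene IKZF1 were the members on the lower side at an unadjusted p under 0.05, the latter at 11.9 and 6.21 CPM in the controls and 1.02 and 3.09 CPM in the OE-labelled libraries. The median was 0.011 without OE-labelled replicate 1 and 0.072 without control replicate 2.

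Secreted ligands had no common direction. The cytokine and growth factor list had a median of -0.30 over 29 tested of 59, with 7 above both controls and 8 below, shares near those of all genes (23.3% and 24.3%). The median was -0.10 without control replicate 2 and -0.14 without OE-labelled replicate 2. Beside il11b, the higher members with the smallest p were VEGFC, a lymphatic and vascular growth factor, at 295 and 220.1 CPM in the controls and 519.9 and 450.5 CPM in the OE-labelled libraries, and ANGPT1, the ligand of the Tie2 receptor, at 124 and 91.3 CPM in the controls and 215 and 196 CPM in the OE-labelled libraries. Their log2 fold changes were 0.91 (SE 0.23) and 0.93 (SE 0.24), with adjusted p of 0.132 and 0.135. tek, which encodes Tie2, was at 85.9 and 61.8 CPM in the controls and 115 and 119.9 CPM in the OE-labelled libraries (adjusted p 0.237). VEGFA (ENSDARG00000034700), chosen after its values were seen, was at 42.1 and 64.3 CPM in the controls and 26.9 and 34.5 CPM in the OE-labelled libraries.

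The receptors of interleukin-11 and the signalling genes downstream of it had smaller differences than the ligand and no call. The list, which holds il11b itself beside receptors, kinases and Stat3 targets, had a median of 0.23 over 18 tested, and -0.014 without control replicate 1. The receptor il11ra was at 13.1 and 26.3 CPM in the controls and 9.48 and 14.7 CPM in the OE-labelled libraries and the shared subunit il6st at 38.8 and 54.5 CPM in the controls and 51.2 and 40.9 CPM in the OE-labelled libraries, both with overlapping groups. The Stat3 target SOCS3 (ENSDARG00000025428), a feedback inhibitor, was at 248 and 179.7 CPM in the controls and 349 and 223 CPM in the OE-labelled libraries, also overlapping. PIM1, a kinase induced by Stat signalling, was at 254 and 162 CPM in the controls and 489 and 308 CPM in the OE-labelled libraries (log2 fold change 0.94 (SE 0.29), adjusted p 0.187).

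The hypoxia list had a median of -0.13 over 29 tested, with 8 above both controls and 11 below (23.3% and 24.3% of all genes), and a median of 0.054 on library size alone. ADM was the hypoxia gene with the smallest p in the fit of the 4 libraries. In the fit of all 10, where 0.533% of all genes were called lower, the list had 1 call, which was lower. This was IGFBP1, for a binding protein of insulin-like growth factors, at 4.53 and 4.59 CPM in the controls and 0.256 and 1.13 CPM in the OE-labelled libraries (log2 fold change -2.65 (SE 0.82), adjusted p 0.187 and 0.0275). HIF1A and hif1aa, for subunits of hypoxia-inducible factor, were at 248 and 228 CPM in the controls and 373 and 346 CPM in the OE-labelled libraries and 87.4 and 78.4 against 127 and 144 CPM in the same order. EPAS1 (ENSDARG00000057671), the relative that encodes HIF2 alpha, was at 169 and 206 CPM in the controls and 83.8 and 141 CPM in the OE-labelled libraries, below both controls. Their adjusted p were 0.222, 0.193 and 0.244. Cholesterol synthesis genes had a median of 0.30 over 19 tested, and 0.10 without control replicate 2. At an unadjusted p under 0.05, 1 was higher and none lower (6.11% and 9.36% of all genes).

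Other cell types that a ventricle could contribute were also examined. Of 21 tested endothelial genes 13 lay below both controls and 3 above (24.3% and 23.3% of all genes), with a median of -0.48 and no call. The vessel receptor gene kdrl was at 242 and 347 CPM in the controls and 143 and 158 CPM in the OE-labelled libraries and the endothelial cadherin gene cdh5 at 102 and 202 CPM in the controls and 54.8 and 72.4 CPM in the OE-labelled libraries, with adjusted p of 0.131 and 0.144. Of 18 tested fibroblast and epicardium genes, 5 lay below both controls and 1 above (24.3% and 23.3% of all genes). An unadjusted p under 0.05 was reached by 5 lower genes and 1 higher gene (9.36% and 6.11% of all genes), and none was called. Their median was -0.18, 0.12 without OE-labelled replicate 1 and 0.0098 on library size alone. Of their defining markers, TCF21 was at 2.08 and 3.78 CPM in the controls and 2.05 and 3.71 CPM in the OE-labelled libraries, and col1a1a, the collagen I chain, at 21.3 and 20.9 CPM in the controls and 5.64 and 28.5 CPM in the OE-labelled libraries, so that the groups overlapped. Their sum, 7294 and 5323 CPM in the controls and 11970.0 and 9564 CPM in the OE-labelled libraries, was led by CCN2, a matricellular growth factor also made by other cells, at 5569 and 2864 CPM in the controls and 9639.8 and 7575 CPM in the OE-labelled libraries (log2 fold change 1.03 (SE 0.29), adjusted p 0.162). Its log2 fold change was 1.59 without control replicate 1 and 0.63 without control replicate 2. On the lower side MMP2 was at 50.4 and 42.4 CPM in the controls and 20.5 and 31.9 CPM in the OE-labelled libraries. SPARC was at 67.7 and 46.3 CPM in the controls and 31.0 and 39.5 CPM in the OE-labelled libraries. The log2 fold changes of MMP2 and SPARC were -0.82 (SE 0.29) and -0.69 (SE 0.28), with adjusted p of 0.228 and 0.275.

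The 20 tested of 57 collagen genes had a median of -0.25, and 0.11 without a filter on low counts. Neutrophil and lymphocyte lists had 3 and 4 tested members and medians of -0.033 and -0.69. The lymphocyte sum was 20.8 and 21.6 CPM in the controls and 9.10 and 13.3 CPM in the OE-labelled libraries. The B cell receptor chain gene cd79a was at 1.47 and 1.62 against 1.02 and 1.34 CPM in that order. For neutrophils the sum was 102 and 113 CPM in the controls and 108 and 95.3 CPM in the OE-labelled libraries. Most of it came from 1 gene, nccrp1, at 83.4 and 103 CPM in the controls and 94.2 and 88.35 CPM in the OE-labelled libraries. Of the 11 neutrophil list genes 5 had no count in any library. The lymphocyte median was -0.26 without OE-labelled replicate 1 and -1.95 without replicate 2. The neutrophil median was 0.16 on library size alone. Cell cycle genes had a median of 0.0094 over 19 tested of 38, -0.58 without OE-labelled replicate 2 and 0.35 without replicate 1. PCNA, the replication clamp, was at 51.1 and 36.9 CPM in the controls and 51.8 and 52.5 CPM in the OE-labelled libraries (log2 fold change 0.24 (SE 0.26)). The p53 targets had a median of 0.29 over 17 tested, 0.13 without OE-labelled replicate 1 and 0.55 without control replicate 1. Of the 17, 11 had positive and 6 negative log2 fold changes. GADD45B (ENSDARG00000013576) was at 58.7 and 37.1 CPM in the controls and 115 and 75.4 CPM in the OE-labelled libraries (adjusted p 0.182). On the lower side CCNG1, a cyclin induced by p53, was at 821 and 679 CPM in the controls and 551 and 498 CPM in the OE-labelled libraries (adjusted p 0.276).

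The groups that were lower did not all vary together over the 4 libraries. The cardiomyocyte sum was nearly equal in the OE-labelled libraries, whereas the macrophage sum in OE-labelled replicate 1 was less than that in replicate 2 by a wide margin. For the globin genes both pairs were unequal, with control replicate 1 and OE-labelled replicate 2 the higher of their pairs. Whether fewer sorted cardiomyocytes, macrophages or red cells, or less RNA in each, or the uncertain genotype of control replicate 1 has a part in these differences was not tested. Without control replicate 1 the medians of the cardiomyocyte, globin and macrophage lists were -1.02, -1.79 and -1.79. Those of the cytosolic heat shock, proteasome, hypoxia and coagulation lists were then 0.013, 0.27, -0.056 and -0.12, and those of the cell cycle, fibroblast and neutrophil lists 0.24, -0.30 and -0.18.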

How the data were processed

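For each library the authors deposited raw counts of reads for 32520 Ensembl gene identifiers, as whole numbers. Per the submitters' processing notes, FastQC 0.11.4, Trim Galore 0.6.0, HISAT2 2.1.0 and DESeq2 1.22.1 were used with genome build GRCz11. The counter, the annotation release and the use of strand are not given in the sources used here, so overlapping and antisense genes cannot be separated, and paralogues can lose or share reads. Lines that name no gene (41.0% to 46.9% of the reads in the 4 files fell in genes) did not enter library sizes or tests. No molecular identifiers are mentioned in the labels' protocols, so reads of one amplified molecule cannot be recognised. Symbols came from a table pairing 29201 of the identifiers with names; 1719 symbols are shared by several identifiers, which are then given.

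Groups follow the sample titles. The 4 gata1a libraries were fitted with edgeR 4.0.16 in R 4.3.3: filterByExpr (minimum count 10, minimum total 15), TMM factors, the quasi-likelihood test on the counts and two-sided Benjamini-Hochberg adjusted p over all 14006 genes, threshold 0.05. The SE is the size of the log2 fold change over the root of the F statistic. CPM are counts divided by library sizes scaled by the TMM factors of the 4 libraries. Alternatives were RLE, upper-quartile and no factors, other filters, DESeq2 1.42.0, limma-voom (limma 3.58.1), adjusted deviance, a model of all 10 libraries, a block for replicate number, removal of globin genes and the most abundant gene, a threshold of 0.1 and each library left out. The fits were tested on simulated data. Figures used matplotlib 3.10.9.

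Of the 32 gene lists, those given as symbols held 711 symbols, of which 665 were matched, and the others were symbol patterns. Of the resulting list entries, counted per gene and list, 171 matched only after the letter of a fish gene copy was dropped. Lists for MHC class II chains, the ifi27 family and glucocorticoid-responsive genes were added after the values were seen. The members of the comparison and all lists were chosen with earlier results of these data known. Genes named are npas4l, gata1a and itga2b; genes with an adjusted p under 0.05; the 15 higher and 15 lower genes of smallest p with a mean of at least 10 CPM, groups that do not overlap and a symbol other than a clone name; the 3 of smallest p at that level in each list; and the first 3 markers of each cell type. Any other gene in the text was chosen once its values had been seen. One result is not reported here.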

Additional observations from a re-analysis of the deposited data

How the results depend on the processing

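The number of genes called, 5 in the analysis as reported, was 5 with RLE factors, 3 with upper-quartile factors, 2 on library size alone and 2 with the globin genes and the most abundant gene left out. It was 30 with at least 10 counts in every library, 69 with adjusted deviance, 90 with limma-voom, 110 with all 10 libraries in one fit, 111 at a threshold of 0.1, 380 with DESeq2 and 648 with no filter on low counts. With a replicate block it was 187; same-numbered libraries deviated from their group means with a correlation of 0.057, and nothing in the labels says that the numbers pair them. Leaving out one library gave from 51 to 952, the highest without control replicate 1. On library size alone 1 gene was higher and 1 lower, where the analysis as reported had 1 and 4. mibp was called under every alternative; HBE1 (ENSDARG00000069734) lost its call on library size alone (adjusted p 0.0527), and mhc2dab and zgc:153704 lost theirs with upper-quartile factors, on library size alone and without the globin genes, and zgc:153704 also with limma-voom (0.0872) and in the fit of all 10 libraries (0.0640). Of 89 genes followed over 15 alternatives, npas4l alone changed sign, with a log2 fold change from -0.41 without Npas4l OE replicate 1 to 0.67 without Npas4l OE replicate 2. The medians of 9 of 35 lists changed sign under some alternative, 6 of them outside the fits that leave out one library; these were cell cycle, coagulation, collagen, cytosolic heat shock, fibroblast and epicardium, hypoxia, interleukin-11 and Stat3, neutrophil and proteasome. Why the counts of calls differ between settings was not tested. With 2 libraries a side, a difference that missed the threshold is not shown to be absent.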

Other observations

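A list of glucocorticoid-responsive genes was put together after some of its members had been seen among the lower genes, so its counts describe those members and test nothing. Of 19 tested, 11 lay below both controls in both OE-labelled libraries and 1 above (24.3% and 23.3% of all genes). The median log2 fold change was -0.68, -0.37 without OE-labelled replicate 1 and -1.06 without replicate 2. FKBP5, a cochaperone of the glucocorticoid receptor, was at 294 and 217 CPM in the controls and 126 and 69.9 CPM in the OE-labelled libraries (log2 fold change -1.39 (SE 0.30), adjusted p 0.107 by edgeR and 0.0282 in the fit of all 10 libraries). KLF9, a transcription factor induced by cortisol, was at 56.8 and 67.6 CPM in the controls and 29.7 and 18 CPM in the OE-labelled libraries. CEBPD, a transcription factor of the acute response, was at 89.1 and 93.3 CPM in the controls and 38.9 and 40.0 CPM in the OE-labelled libraries, and HSD11B2, the enzyme that inactivates cortisol, at 384 and 463 CPM in the controls and 163 and 186 CPM in the OE-labelled libraries. GLUL (ENSDARG00000100003), glutamine synthetase, was at 139.6 and 157 CPM in the controls and 66.1 and 60.4 CPM in the OE-labelled libraries. FKBP5, KLF9, CEBPD, this GLUL and IGFBP1 were called lower in the fit of all 10, as were 0.533% of all genes.

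A few more genes were picked with their values known, from those called in the fit of all 10 libraries and outside the lists. nlrp3l2, of the inflammasome receptor family, was at 8.93 and 9.18 CPM in the controls and 0.256 and 1.03 CPM in the OE-labelled libraries (adjusted p 0.00209), and xaf1, an interferon-inducible gene, at 23.6 and 25.1 CPM in the controls and 3.2 and 8.13 CPM in the OE-labelled libraries (adjusted p 0.0282). ifitm1, an interferon-induced membrane protein, was at 76.0 and 74.5 CPM in the controls and 15.2 and 35.0 CPM in the OE-labelled libraries. cycsb, which encodes cytochrome c, was at 585 and 602 CPM in the controls and 288 and 293 CPM in the OE-labelled libraries (adjusted p 0.0415), the same side as the oxidative phosphorylation genes. On the higher side ALDH1L2, a mitochondrial enzyme of folate metabolism, was at 0.489 and 0.135 CPM in the controls and 5.64 and 5.25 CPM in the OE-labelled libraries (adjusted p 0.00735). SKIL, a repressor of TGF-beta signalling that TGF-beta itself induces, was at 111 and 83.6 CPM in the controls and 213 and 212 CPM in the OE-labelled libraries (adjusted p 0.0494). For each of these 6 genes both OE-labelled libraries lay outside both controls (47.6% of all genes), as for every gene called in the fit of all 10.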
